A study of Homo sapiens with 6 samples.

Results

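The genes described here are 40 genes of actin and the contractile machinery, many of them driven by serum response factor (SRF), chosen by name out of the 58051 genes counted. The list holds the actins, SRF and its cofactors, the proteins that bind actin monomers, the chains and kinases of non-muscle and smooth muscle myosin II, the tropomyosins, the calponins and transgelins, and the crosslinkers and adhesion proteins that anchor actin filaments. All 40 were found in the count files by their Ensembl identifiers. The question was whether a difference in ACTB and MYLK between RBFOX1 and GFP cells was shared by the other genes of the same machinery.

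The cells were A172, an established human glioblastoma cell line kept in serum-containing medium. Both groups were stable lines made with lentiviral particles and polybrene, 3 libraries each. The control carried a GFP construct, so transduction and expression of an introduced gene were common to both groups. The other line carried RBFOX1, an RNA-binding protein that recognizes TGCATG (in DNA letters) and acts on splicing and on mRNA stability. Whether either line was 1 clone or a pool of cells is not given in the sources used here. If each construct stands for 1 line, the p-values below measure spread among libraries of a line. Other differences between the lines then cannot be told apart from those due to RBFOX1. RBFOX1 itself was counted 4, 0 and 1 times in the GFP libraries, against 10276, 16467 and 21451 times in the RBFOX1 libraries.

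Actin exists as monomers and as filaments, and the monomer pool feeds back on transcription. Monomeric actin holds the SRF cofactors MRTFA and MRTFB in the cytoplasm, and when filaments grow the cofactors are released, enter the nucleus and bind SRF on a DNA element called the CArG box. Their targets include actins, tropomyosins, calponins, transgelin and myosin light chains, which is why these genes often rise together in smooth muscle cells, myofibroblasts and stretched or spread cells. In glioblastoma cells the same machinery serves migration, adhesion and division.

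The libraries held between 7433414 and 23249221 counts on genes. GFP replicate 1, the deepest library, stood apart from the other GFP libraries, with chi-square values of 8.90 and 9.07 per degree of freedom when compared with replicates 2 and 3, which gave 1.66 between them. Without it, 21 of the 40 genes were higher and 10 lower, against 20 and 10 with it. The 6 glioblastoma line markers were detected in both groups, but GFAP had at most 4 counts in a library. Of these, VIM, CD44 and OLIG2 were lower in RBFOX1 cells (log2 fold changes of −0.65, −0.90 and −0.50), NES and SOX2 were higher (0.60 and 2.53), and GFAP did not pass the threshold. Their summed level ranged from 76162 to 77780 normalized counts in GFP and from 50432 to 51188 in RBFOX1 cells. Most of that sum was VIM (mean 59589 in GFP and 37905 in RBFOX1 cells) and CD44 (13766 and 7366). It therefore does not describe the 6 markers alike. Over the 4 markers that A172 should lack (PTPRC, EPCAM, CDH1 and PECAM1), the summed level ranged from 30.6 to 41.3 normalized counts in GFP and from 139 to 146 in RBFOX1 cells, with 3 of the 4 higher and none at 0 in every library. These marker levels moved with the comparison, and their part in the results was not tested.

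The short promoter stretches below show the CArG box, the element SRF binds, in the members that changed and hold it, and in SRF itself. It was searched by its exact letters, CC, then 6 A or T, then GG, which read the same on both strands, in the windows that RefSeq (GRCh38.p14) gives from 250 bases before to 50 bases after each listed start. Windows were found for 36 of the 40 genes, with no entry for ACTB, MYH11, MYL9 and TAGLN. The CArG box is in capitals, and each line runs 5′ to 3′ on the gene's strand.
ACTG1, chr17:81512874-81512903, minus strand: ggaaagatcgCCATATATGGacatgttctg
SRF, chr6:43171229-43171258, plus strand: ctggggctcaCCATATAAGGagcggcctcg
SRF, chr6:43171249-43171278, plus strand: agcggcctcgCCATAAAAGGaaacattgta
CNN2, chr19:1026509-1026538, plus strand: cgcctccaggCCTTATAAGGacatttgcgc
MYLK, chr3:123620623-123620652, minus strand: ataaaccatcCCTTTTATGGgagttgaagc
ACTN1, chr14:68977718-68977747, minus strand: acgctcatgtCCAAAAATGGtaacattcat
FLNA, chrX:154374709-154374738, minus strand: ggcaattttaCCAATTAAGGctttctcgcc
TPM4, chr19:16067355-16067384, plus strand: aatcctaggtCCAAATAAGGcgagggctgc
FHL1, chrX:136196911-136196940, plus strand: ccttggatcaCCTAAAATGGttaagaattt
FHL2, chr2:105438595-105438624, minus strand: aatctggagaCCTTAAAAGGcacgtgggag
FHL2, chr2:105399091-105399120, minus strand: gcgtgcatctCCTTATATGGtcaaatgaca

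The boxes of ACTG1, SRF, CNN2, FLNA and FHL1 and the FHL2 box printed last lie before the start of the canonical transcript, 94, 30, 10, 89, 94, 126 and 59 bases before it in the order printed. The other boxes lie in front of further RefSeq starts of their genes, for ACTN1 one that is 1736 bases downstream of the canonical start, for TPM4 one 8957 bases upstream of it and for the FHL2 box printed first one 39462 bases upstream. The RefSeq start in front of which the MYLK box lies is 263784 bases downstream of the canonical MYLK start, inside the gene, where short transcripts of the locus begin, so a count of the whole gene does not measure transcripts from that start alone. A CArG box was also found for ACTG2 (2 boxes) and ROCK2. In all, 11 of the 36 genes (30.6%) held at least 1 box, against 438 of 27305 genes (1.60%) in the RefSeq table. Counted by window, which allows for genes with several starts, the box was in 13 of 76 windows of these genes (17.1%) and in 454 of all 35116 windows (1.29%). The list was assembled from known actin and SRF genes, so this share describes how the list was made.

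Of the 40 genes, 20 were higher and 10 lower in RBFOX1 than in GFP cells, 8 did not pass the threshold and 2 (ACTG2 and MYH11) were too low to test. The quasi-likelihood test of edgeR was used, and p was adjusted by the Benjamini-Hochberg procedure across the 20536 genes whose counts summed to at least 10, with an adjusted p under 0.05 as the threshold. Of all genes tested, 23.7% were higher and 22.9% lower (46.7% in either direction), against 52.6% and 26.3% of the 38 members tested. LMOD1, counted among the higher members, reached 10 summed counts only through its RBFOX1 libraries, so it could be tested only as a rise. Most of the 38 members are highly expressed, and highly expressed genes pass a test more easily. Where the mean was 1000 normalized counts or more (3475 genes), 72.6% were called, 32.6% as higher and the other 1390 genes as lower, and of the 29 members at that level 15 (51.7%) were higher and 7 (24.1%) lower. A normalized count is a count divided by the TMM-scaled size of its library, relative to the mean of the 6 libraries.

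The changes were uneven in size and direction. The median log2 fold change of the 38 members was 0.16, against 0.0051 over all genes tested. In 21 members every RBFOX1 library lay above every GFP library and in 10 every RBFOX1 library lay below; over all genes tested those shares were 26.9% and 26.5%. Rises of at least 1.5-fold were seen in 9 members (13.0% of all genes tested had one) and falls of that size in 3 (9.88% of all genes tested). A log2 fold change of at least 1 was reached by 6 members on the higher side, against 8.23% of all genes tested. LMOD1 is among these 6 and among the 9 rises of at least 1.5-fold. The members took 2.45 to 2.58% of the counts in GFP libraries and 2.97 to 3.04% in RBFOX1 libraries (2.52 ± 0.0642 and 3.01 ± 0.0336, SD, n = 3). This share describes a list chosen with earlier results known, and abundant genes weigh most in it. Mean normalized counts went from 52497 to 78579 for ACTB and from 3655 to 14351 for TPM1. They fell in 10 members, among them FLNA, from 73239.2 to 66266.5. In these bulk libraries, fewer cells expressing a gene and less RNA of it per cell cannot be told apart.

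**Figure D1:**
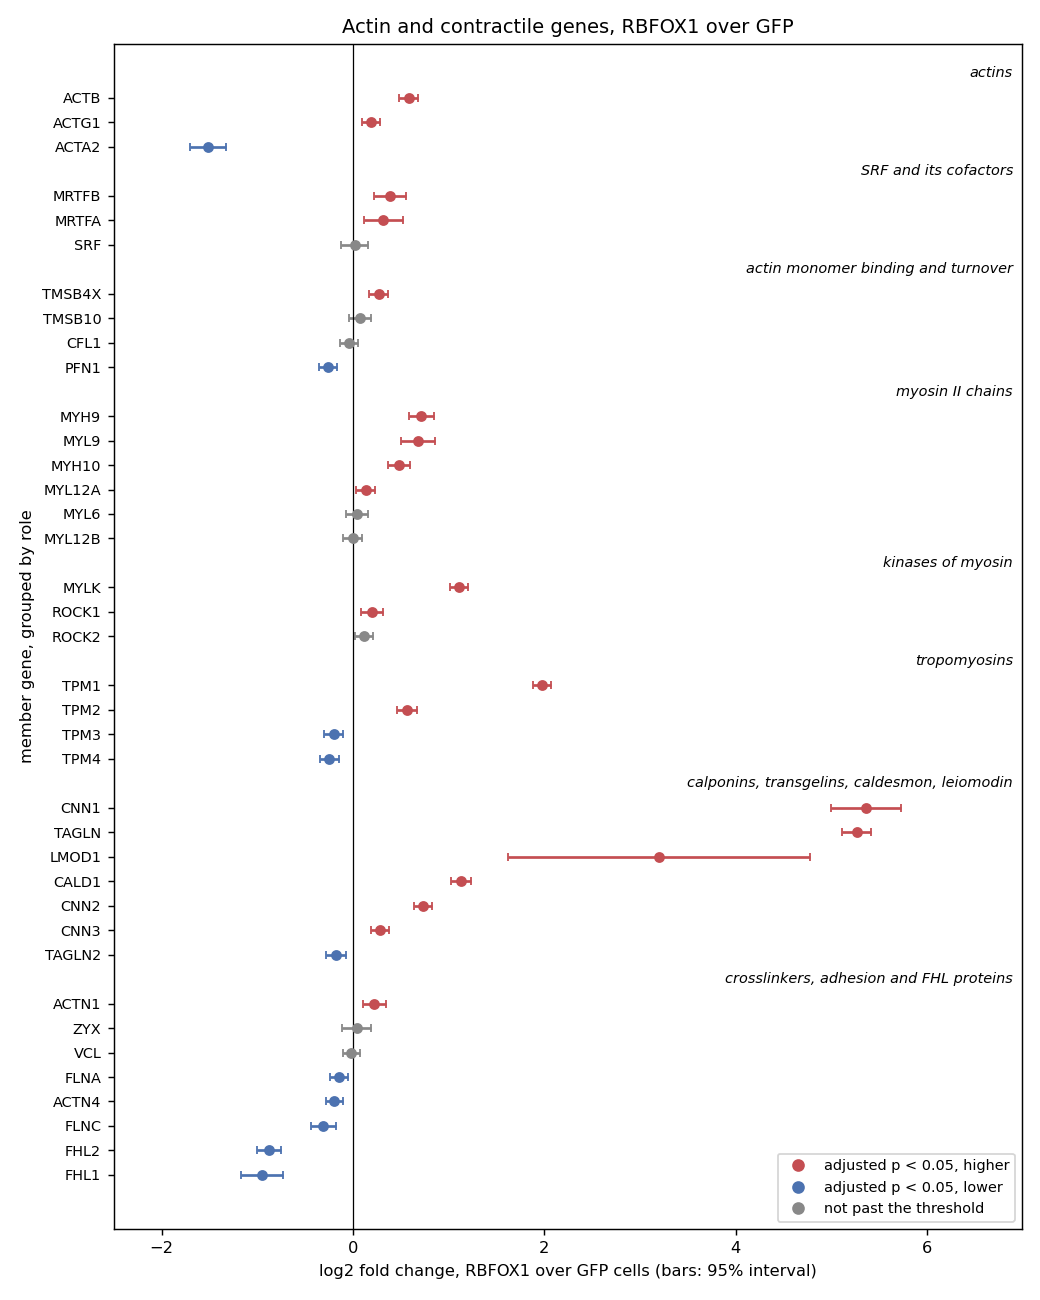
Log2 fold change, RBFOX1 over GFP, of the 38 members tested, grouped by role, with bars for the 95% interval. CNN1 and TAGLN stand above 5, TPM1 near 2 and ACTA2 at −1.52, while most other members lie within 1 unit of 0; the LMOD1 value rests on GFP libraries at or under 3 counts and depends on the fit's prior count.

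Of the actins, the 2 cytoplasmic genes rose and the smooth muscle gene ACTA2 fell. ACTB, β-actin (ENSG00000075624, chr7:5526409-5563902, minus strand, GRCh38), had 48754, 52884 and 55853 normalized counts in GFP and 75662, 80332 and 79744 in RBFOX1 cells. All RBFOX1 libraries lay above all GFP libraries, and the log2 fold change was 0.58 (SE 0.0523, edgeR adjusted p = 1.28e-08). ACTG1, γ-actin (ENSG00000184009, chr17:81509413-81523847, minus strand), had 37043, 37119 and 38887 in GFP and 40731, 44204 and 43457 in RBFOX1 cells, a smaller rise of 0.18 on the log2 scale (SE 0.0479, edgeR adjusted p = 0.00344). Per kilobase of the canonical transcript, ACTB made up 59.6% ± 1.17 of the counts of the 2 cytoplasmic actins in GFP and 66.0% ± 0.246 in RBFOX1 cells (n = 3, SD), without overlap between the groups. Reads on the named pseudogenes of ACTB came to 0.229% of the ACTB counts in GFP and 0.292% in RBFOX1 cells, and those of ACTG1 to under 0.08% in both. These shares leave out reads of low alignment quality, which were not counted on any gene.

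ACTA2, smooth muscle α-actin and the best known marker of contractile and myofibroblast states (ENSG00000107796, chr10:88935074-88991339, minus strand), had 378, 341 and 344 normalized counts in GFP and 122, 115 and 134 in RBFOX1 cells. The groups did not overlap, and ACTA2 was 2.86-fold lower (log2 fold change −1.52, SE 0.0962, edgeR adjusted p = 6.71e-11). FAS, the death receptor gene that overlaps ACTA2 on the opposite strand and was picked out after its values were seen, had 562, 571 and 559 normalized counts in GFP and 112, 134 and 125.1 in RBFOX1 cells, a log2 fold change of −2.17 (SE 0.0859, edgeR adjusted p = 5.04e-14). STAMBPL1, a deubiquitinase gene that also overlaps ACTA2 on the opposite strand and was picked out in the same way, went the other way, with 433, 409 and 412 normalized counts in GFP and 655, 695 and 673 in RBFOX1 cells, a log2 fold change of 0.69 (SE 0.0664, edgeR adjusted p = 3.57e-08). The libraries were counted by strand, so reads of ACTA2 could be told apart from those of both neighbours. ACTG2, the enteric smooth muscle actin, was counted 1, 0 and 0 times in GFP libraries and 2, 2 and 1 times in RBFOX1 libraries, at or under the limit of 3 counts in every library. The same limit held for MYH11, the smooth muscle myosin heavy chain, counted 2, 1 and 0 times in GFP libraries and 0, 1 and 0 times in RBFOX1 libraries.

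SRF itself did not pass the threshold, and its interval leaves room for a small change in either direction, while both of its cofactors rose. SRF had 390, 384 and 409 normalized counts in GFP and 381, 404 and 408 in RBFOX1 cells, with overlapping groups and a log2 fold change of 0.02 (95% interval −0.12 to 0.16, edgeR adjusted p = 0.865). MRTFB, which couples actin to SRF, had 389, 450 and 491 in GFP and 591, 598 and 537 in RBFOX1 cells (log2 fold change 0.39, SE 0.0838, edgeR adjusted p = 0.000713). MRTFA, the related cofactor, had 140, 133 and 143 in GFP and 180, 155 and 184 in RBFOX1 cells. Its log2 fold change was 0.32 (SE 0.105, edgeR adjusted p = 0.0181), and the call was lost in DESeq2 (adjusted p = 0.107) and without GFP replicate 2 or RBFOX1 replicate 3 (edgeR adjusted p up to 0.11). These are levels of mRNA and say nothing of where the MRTF proteins were in the cell. MYOCD, the cofactor of SRF in smooth muscle and heart, had 0 counts in every library.

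The proteins that bind actin monomers moved little, and in both directions. TMSB4X, thymosin β4, which sequesters monomers, had 22123, 21591 and 21434 normalized counts in GFP and 24153, 27581 and 26651 in RBFOX1 cells (log2 fold change 0.27, SE 0.0517, edgeR adjusted p = 0.000232). Its named pseudogenes took reads equal to 9.69% of the TMSB4X counts in GFP and 9.14% in RBFOX1 cells. Reads left out for low alignment quality are in neither count, so these shares do not bound the uncertainty of its level. PFN1, profilin, which loads monomers onto growing filaments, had 12059, 12053 and 11802 in GFP and 9655, 9998 and 10334 in RBFOX1 cells, a fall without overlap (log2 fold change −0.26, SE 0.0465, edgeR adjusted p = 0.000102). CFL1, cofilin, which severs filaments, had a log2 fold change of −0.04 (95% interval −0.13 to 0.05), and TMSB10 had 0.07 (−0.04 to 0.19). Neither passed the threshold in the fit on all libraries, and TMSB10 passed it without GFP replicate 1 and without RBFOX1 replicate 1.

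Among the chains of myosin II, the motor of contraction, both non-muscle heavy chains measured and 2 of 4 light chains rose, and none of the 6 chains tested fell. The call of MYL12A, 1 of these light chains, was not kept in every fit. Of all genes tested 23.7% were higher, and 32.6% of those with a mean of 1000 normalized counts or more. MYH9, heavy chain of non-muscle myosin IIA, had 10061, 12590 and 12631 normalized counts in GFP and 19624, 19012 and 19206 in RBFOX1 cells (log2 fold change 0.71, SE 0.067, edgeR adjusted p = 2.39e-08). MYH10, heavy chain of myosin IIB, had 1776, 2089 and 2039 in GFP and 2724, 2801 and 2675 in RBFOX1 cells (log2 fold change 0.48, SE 0.0582, edgeR adjusted p = 9.12e-07). GFP replicate 1 was the lowest library for both, and all RBFOX1 libraries lay above all GFP libraries. MYH9 made up 86.0% ± 0.553 of the counts per kilobase of the 2 heavy chains in GFP and 87.9% ± 0.358 in RBFOX1 cells.

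MYL9, the regulatory light chain typical of smooth muscle, was the light chain that moved most. It had 230, 299 and 291 normalized counts in GFP and 432, 424 and 436 in RBFOX1 cells, with no overlap and a log2 fold change of 0.68 (SE 0.0926, edgeR adjusted p = 3.9e-06). Even so MYL9 made up only 0.513% of the light chain counts per kilobase in GFP and 0.764% in RBFOX1 cells, since MYL6, MYL12A and MYL12B were far more abundant. MYL12A, a regulatory light chain of non-muscle cells, had a log2 fold change of 0.13 (SE 0.0497, edgeR adjusted p = 0.035), a call that was lost without any of GFP replicates 2 and 3 and RBFOX1 replicates 2 and 3 (edgeR adjusted p up to 0.144). MYL6, the essential light chain, had a log2 fold change of 0.04 (95% interval −0.07 to 0.16) and MYL12B of −0.00 (−0.10 to 0.10), and neither passed. The summed light chain counts per kilobase were 1.05-fold those of GFP cells (exact two-sided permutation p = 0.3). Those of the 2 heavy chains were 1.60-fold (exact two-sided permutation p = 0.1, the smallest that 3 against 3 libraries allow).

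MYLK, myosin light chain kinase, which phosphorylates the regulatory light chain and so switches on contraction, was the kinase with the widest difference. MYLK (ENSG00000065534, chr3:123610049-123884332, minus strand) had 3500, 3672 and 3777 normalized counts in GFP and 8030, 7682 and 7805 in RBFOX1 cells. The groups were well apart, and MYLK was 2.15-fold higher (log2 fold change 1.10, SE 0.0482, edgeR adjusted p = 2.22e-13). ROCK1, a kinase that keeps the light chain phosphorylated, had 1840, 2110 and 2121 in GFP and 2284, 2391 and 2275 in RBFOX1 cells (log2 fold change 0.20, SE 0.0574, edgeR adjusted p = 0.00708). ROCK2, its close relative, had 2596, 2745 and 2768 in GFP and 2942, 2957 and 2883 in RBFOX1 cells. The ROCK2 groups did not overlap, but the log2 fold change of 0.12 (SE 0.0479) did not pass the threshold (edgeR adjusted p = 0.0553), though it passed in limma-voom and with DESeq2's size factors, library totals or filterByExpr.

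**Figure D2:**
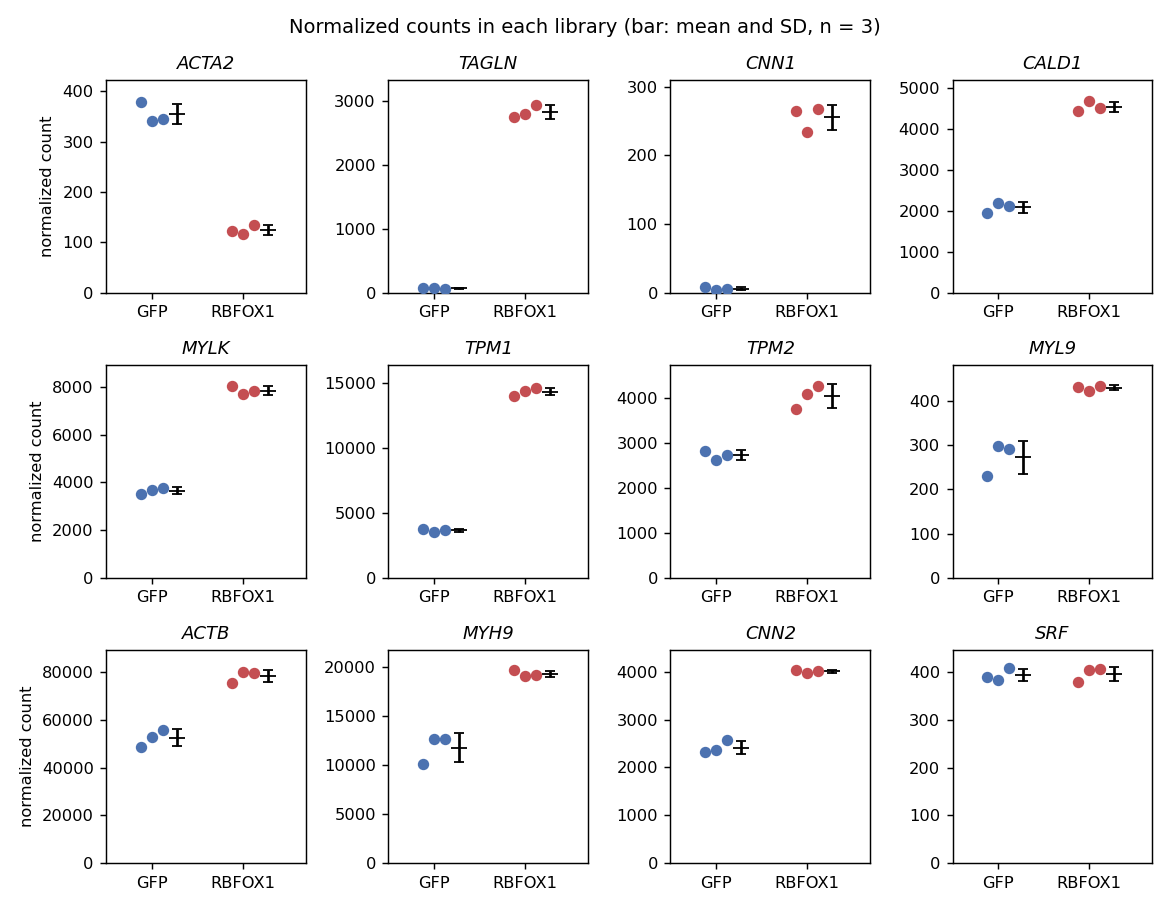
Normalized counts of 12 members in each of the 6 libraries, GFP in blue and RBFOX1 in red, with the mean and SD (n = 3) as a bar beside the points; each panel has its own linear axis from 0. TAGLN and CNN1 are near 0 in GFP libraries, ACTA2 is lower in every RBFOX1 library, and the SRF groups overlap.

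The tropomyosins, which wind along filaments and set how myosin and cofilin reach them, split in 2 directions. TPM1 (ENSG00000140416, chr15:63042620-63071915, plus strand) had 3751, 3529 and 3684 normalized counts in GFP and 14039, 14419 and 14594 in RBFOX1 cells. It was 3.93-fold higher (log2 fold change 1.97, SE 0.0484, edgeR adjusted p = 3.51e-17), the third largest rise of the list after CNN1 and TAGLN, LMOD1 left aside. TPM2, whose product is abundant in smooth muscle, had 2822, 2618 and 2740 in GFP and 3746, 4095 and 4262 in RBFOX1 cells (log2 fold change 0.57, SE 0.0535, edgeR adjusted p = 2.68e-08). TPM3 and TPM4, the main sources of short non-muscle tropomyosins, fell. TPM3 went from a mean of 9883 ± 357 to 8590 ± 366 (log2 fold change −0.20, SE 0.0493, edgeR adjusted p = 0.00201), and TPM4 from 16332 ± 871 to 13743 ± 614 (log2 fold change −0.25, SE 0.0519, edgeR adjusted p = 0.000489).

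The make-up of the tropomyosin pool differed between every GFP and every RBFOX1 library. Per kilobase of the canonical transcript, TPM1 was 22.6% ± 0.812 of the counts of the 4 genes in GFP and 53.7% ± 0.716 in RBFOX1 cells (n = 3, SD), TPM4 was 49.6% ± 2.05 and 25.3% ± 0.884, and TPM3 was 10.5% ± 0.506 and 5.54% ± 0.0894. TPM2 was 17.2% ± 0.751 and 15.4% ± 0.664, and the direction of that difference depended on the length used, since it was 1.54 percentage points higher in RBFOX1 cells when counts were not divided by length. The 4 genes together had 1.65-fold the counts per kilobase of GFP cells. Each of these genes makes many isoforms by alternative promoters and exons, and a count per gene does not separate them.

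**Figure D3:**
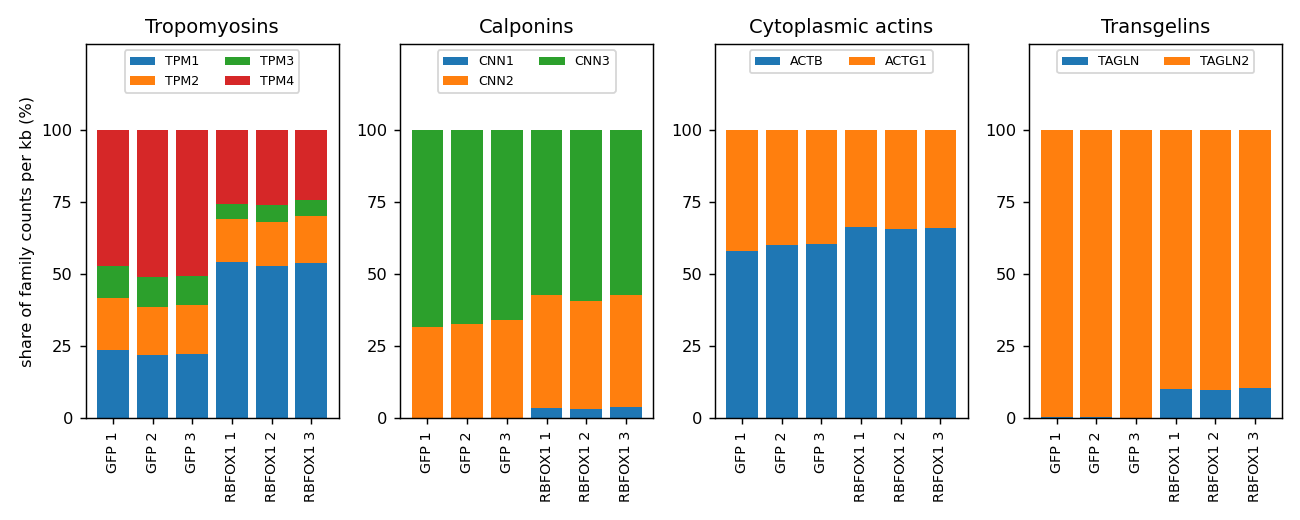
Share of each paralog in the counts of its family, per kilobase of the canonical transcript, in percent, for each of the 6 libraries. TPM1 goes from 22.0 to 23.5% in GFP libraries to 52.9 to 54.3% in RBFOX1 libraries, and the small slice of TAGLN appears in RBFOX1 libraries; the direction of the TPM2 slice flips with the length used.

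The calponins, transgelins, caldesmon and leiomodin, proteins that bind the thin filament, held the largest rises of the list. Of the 7 genes, 6 were higher and 1 lower, with a median log2 fold change of 1.13. Of all genes tested 23.7% were higher, and 32.6% of those with a mean of 1000 normalized counts or more. LMOD1, 1 of the 6, was tested only through its RBFOX1 libraries. TAGLN, CNN1, CALD1 and LMOD1 were taken as smooth muscle markers, while CNN2, CNN3 and TAGLN2 were not. TAGLN, transgelin or SM22α (ENSG00000149591, chr11:117199370-117207464, plus strand), was counted 131, 63 and 61 times in GFP libraries and 1517, 2522 and 3228 times in RBFOX1 libraries. In normalized counts this was 79.5, 73.6 and 64.3 in GFP and 2752, 2800 and 2948 in RBFOX1 cells. The rise was 38.5-fold (log2 fold change 5.27, SE 0.0773, edgeR adjusted p = 2.04e-20), with far less spread within groups than between them. An unnamed gene that overlaps TAGLN on the same strand (ENSG00000280143), picked out after its values were seen, was counted 1, 0 and 2 times in GFP libraries and 30, 46 and 65 times in RBFOX1 libraries, and reads shared by both genes were not counted.

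CNN1, calponin 1 (ENSG00000130176, chr19:11538767-11550323, plus strand), was counted 13, 3 and 5 times in GFP libraries and 146, 211 and 292 times in RBFOX1 libraries, or 7.89, 3.50 and 5.27 against 265, 234 and 267 normalized counts. This was a 41.2-fold rise in the fit (log2 fold change 5.36, SE 0.189, 95% interval 4.99 to 5.74, edgeR adjusted p = 9.35e-15), and the low GFP counts limit its precision. Its size depends on the fit's prior count, and the log2 fold change ranged from 5.17 to 5.81 over the alternatives. A rise with a log2 fold change of at least 5 was rare, at 0.628% of all genes tested. LMOD1, leiomodin 1, which seeds actin filaments in smooth muscle, was counted 1, 1 and 0 times in GFP libraries and 6, 5 and 5 times in RBFOX1 libraries. It was at least 2.47-fold higher against the limit of 3 counts per library, and passed the threshold (edgeR adjusted p = 0.0026), but at a level where its size could not be measured.

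CALD1, caldesmon (ENSG00000122786, chr7:134744252-134970729, plus strand), had 1940, 2183 and 2120 normalized counts in GFP and 4426, 4673 and 4503 in RBFOX1 cells, a 2.18-fold rise (log2 fold change 1.13, SE 0.0525, edgeR adjusted p = 5.85e-13). CNN2, the calponin of non-muscle cells, had 2317, 2365 and 2566 in GFP and 4041, 3978 and 4010 in RBFOX1 cells (log2 fold change 0.73, SE 0.05, edgeR adjusted p = 2.12e-10). CNN3, acidic calponin, had 4685, 4495 and 4608 in GFP and 5472, 5860 and 5443 in RBFOX1 cells (log2 fold change 0.28, SE 0.0479, edgeR adjusted p = 5.44e-05). TAGLN2, the broadly expressed transgelin, fell from 10359 ± 758 to 9137 ± 252 (log2 fold change −0.18, SE 0.0539, edgeR adjusted p = 0.00916), a call lost without RBFOX1 replicate 3 (edgeR adjusted p = 0.0571).

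In abundance, TAGLN remained the smaller part of the transgelins and CNN1 of the calponins. Per kilobase, TAGLN was 0.255% ± 0.0439 of the counts of the 2 transgelins in GFP and 10.1% ± 0.461 in RBFOX1 cells, and the sum of both was 0.979-fold that of GFP cells (exact permutation p = 0.8). The direction of this sum depended on the length used. From counts not divided by length it was 9568, 10950 and 10777 in GFP and 11739, 12227 and 11943 in RBFOX1 cells, without overlap and 1.15-fold higher (exact permutation p = 0.1, the smallest possible), and with all annotated exon bases it was 0.974-fold (exact permutation p = 0.6). CNN1 was 0.108% ± 0.0423 of the calponin counts in GFP and 3.52% ± 0.314 in RBFOX1 cells, while CNN2 went from 32.7% to 38.5% and CNN3 from 67.2% to 58.0%. Each of the 12 shares compared within families differed without overlap, at an exact permutation p of 0.1 (0.1 after Benjamini-Hochberg adjustment over the 12), which is the smallest the design allows. The canonical TAGLN and MYL9 transcripts carry long 3′ ends, so the size of their shares depends on the length chosen.

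The crosslinkers, adhesion proteins and FHL proteins went mostly the other way, with 1 higher, 5 lower and 2 not past the threshold, and a median log2 fold change of −0.17. Lower calls were also common elsewhere, at 22.9% of all genes tested and 1390 of the 3475 genes with a mean of 1000 normalized counts or more. FHL2, a LIM protein that binds SRF and is itself a known SRF target, had 972, 1085 and 1079 normalized counts in GFP and 557, 592 and 550 in RBFOX1 cells, a 1.84-fold fall (log2 fold change −0.88, SE 0.0656, edgeR adjusted p = 8.31e-10). FHL1, a related LIM protein of muscle, had 242, 213 and 198 in GFP and 112, 104 and 122 in RBFOX1 cells, a 1.94-fold fall (log2 fold change −0.95, SE 0.112, edgeR adjusted p = 5.87e-07). Neither pair of groups overlapped.

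The filament crosslinkers changed less. FLNC, filamin C, fell from 1519 ± 139 to 1225 ± 87.9 (log2 fold change −0.31, SE 0.0676, edgeR adjusted p = 0.000712). FLNA, filamin A and among the most abundant members, had 69308, 73528 and 76882 in GFP and 67990, 64068 and 66742 in RBFOX1 cells (log2 fold change −0.14, SE 0.0491, edgeR adjusted p = 0.0204), and this call was lost without any of GFP replicates 2 and 3 and RBFOX1 replicates 2 and 3 (edgeR adjusted p up to 0.154). The 2 non-muscle α-actinins, which bundle filaments, moved apart. ACTN1 had 3632, 4266 and 4365 in GFP and 4968, 4723 and 4615 in RBFOX1 cells (log2 fold change 0.22, SE 0.0606, edgeR adjusted p = 0.0046), and ACTN4 had 11730, 12236 and 12311 in GFP and 10800, 10473 and 10442 in RBFOX1 cells (log2 fold change −0.19, SE 0.0461, edgeR adjusted p = 0.00161). VCL, vinculin, and ZYX, zyxin, both found at focal adhesions and both textbook SRF targets, did not pass the threshold, at −0.02 (95% interval −0.11 to 0.07) and 0.04 (−0.11 to 0.19) on the log2 scale.

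Across roles, the genes that mark smooth muscle held large changes but not in 1 direction. Of the 10 smooth muscle contractile markers on the list (ACTA2, ACTG2, TAGLN, CNN1, CALD1, MYH11, MYLK, LMOD1, TPM2 and MYL9), 8 could be tested. Of these, 7 were higher and ACTA2 was lower, with a median log2 fold change of 1.12, while 23.7% of all genes tested were higher. The 7 include MYLK, from which the question started, and LMOD1, which could be tested only through its RBFOX1 libraries. The 2 untested, ACTG2 and MYH11, were at or under 3 counts everywhere. CALD1, MYLK and TPM2 already had means of 2081, 3649 and 2727 normalized counts in GFP cells. A count per gene does not separate smooth muscle isoforms from others. Outside the list, the smooth muscle gene DES, desmin, had 117, 109 and 106 normalized counts in GFP and 203, 215 and 203 in RBFOX1 cells (log2 fold change 0.89, SE 0.102, edgeR adjusted p = 3.63e-07). SMTN, smoothelin, was lower (log2 fold change −0.29, edgeR adjusted p = 0.00665; 0.0523 without RBFOX1 replicate 2), and SYNPO2, synaptopodin 2, did not pass (−0.12, edgeR adjusted p = 0.773).

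**Figure D4:**
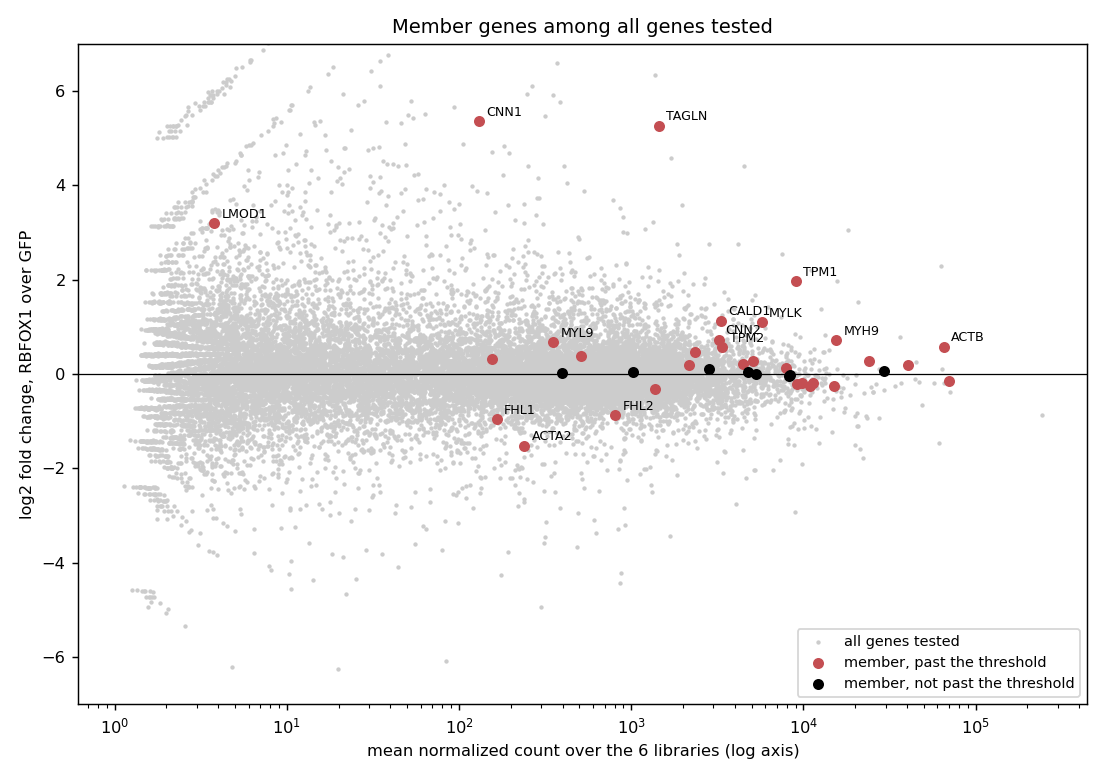
Log2 fold change, RBFOX1 over GFP, against the mean normalized count over the 6 libraries (log axis) for all genes tested in grey and members in colour; 24 genes lie outside the vertical axis. TAGLN, CNN1 and TPM1 lie at 5.27, 5.36 and 1.97, ACTA2, FHL1 and FHL2 below 0, and most abundant members close to 0.

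Members with and without a CArG box in a promoter window were found on both sides. Of the 10 tested members with a box, 4 were higher (ACTG1, MYLK, CNN2 and ACTN1), 4 lower (TPM4, FLNA, FHL1 and FHL2) and 2 not past the threshold (SRF and ROCK2). Of the 25 tested members whose windows held none, 13 were higher and 6 lower. Over all genes, 34.5% of the 197 tested genes with a box were higher and 23.4% lower, against 28.5% and 27.8% of the 12432 without. A missing match means only that these letters were not in these windows.

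TGCATG, the letters RBFOX1 recognizes, was searched on the transcript strand of the canonical 3′ UTR (GENCODE release 44, GRCh38). It occurred in 13 of the 40 members (32.5%), against 36.5% of the 14053 tested genes with a 3′ UTR, whose 3′ UTRs were longer (median 1298 bases, against 767 in the members). Of those 13 members, 10 were higher (ACTG1, MRTFB, TMSB4X, MYH10, MYL9, MYL12A, MYLK, ROCK1, CNN1 and ACTN1), FHL1 was lower, and MYL12B and ROCK2 did not pass. Of the 25 tested members without it, 10 were higher and 9 lower, among them ACTB, TPM1, TAGLN and CALD1 on the higher side. Over the 14053 tested genes with a 3′ UTR, 35.9% of the 5131 with TGCATG were higher and 26.9% lower, against 27.1% and 30.0% of the 8922 without. The sites of CNN1 and MYLK, which rose, and the sites of FHL1, which fell, are shown with the 6 letters in capitals.
CNN1, chr19:11549884-11549889, plus strand: accccctctcccTGCATGgcatcctccagc
CNN1, chr19:11550181-11550186, plus strand: gtgggagcaaacTGCATGcccagagaccca
MYLK, chr3:123612454-123612459, minus strand: atgttgtgtgtgTGCATGtgtggcgtatat
MYLK, chr3:123612308-123612313, minus strand: aggataccacagTGCATGctgtttgttcaa
FHL1, chrX:136210289-136210294, plus strand: gattgactcttcTGCATGtttctcatagag
FHL1, chrX:136210497-136210502, plus strand: accctactgacaTGCATGgtttaacttcct
FHL1, chrX:136210866-136210871, plus strand: ggtttggaaactTGCATGaaaatattttag

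Coordinates on these lines are those of the 6 letters. They lie 89 and 386 bases past the stop codon in CNN1, 1646 and 1792 bases past it in MYLK, and 264, 472 and 841 bases past it in FHL1. A match is a description of the sequence, and binding was not measured here. Members without one lack only these exact letters in the canonical 3′ UTR, and introns and other 3′ UTRs were not searched.

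Other genes of the same system, taken from 3 lists, moved in both directions. Their counts stand against the 23.7% higher and 22.9% lower among all genes tested, and against 32.6% higher and 1390 of 3475 lower among genes with a mean of 1000 normalized counts or more, and nothing particular to the lists is read from them. Of 23 other SRF cofactors and targets, 20 were tested, with 6 higher and 8 lower and a median log2 fold change of −0.074. EGR1, an immediate-early transcription factor and SRF target, had 11.5, 14.0 and 13.7 normalized counts in GFP and 174, 179 and 136 in RBFOX1 cells (log2 fold change 3.64, SE 0.187, edgeR adjusted p = 2.59e-12). CCN1, a secreted matrix protein, had 138, 145 and 185 in GFP and 677, 623 and 566 in RBFOX1 cells (log2 fold change 2.0, SE 0.101, edgeR adjusted p = 2.04e-12). SVIL, supervillin, which ties myosin to the membrane, fell (−0.67, SE 0.0684, edgeR adjusted p = 8.59e-08), as did MCL1, a survival factor (−0.44, SE 0.0462, edgeR adjusted p = 1.13e-07).

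Of 43 other actin assembly genes, 41 were tested, with 12 higher and 18 lower and a median of −0.084. TMOD1, tropomodulin 1, which caps the pointed ends of tropomyosin-coated filaments, had 111, 145 and 165 normalized counts in GFP and 1562, 1703 and 1465 in RBFOX1 cells (log2 fold change 3.53, SE 0.1, edgeR adjusted p = 3.18e-16). DIAPH3, a formin that elongates filaments, rose by 1.80 on the log2 scale (SE 0.0873, edgeR adjusted p = 1.08e-12). TWF2, twinfilin 2, which binds monomers, fell (−1.20, SE 0.0585, edgeR adjusted p = 1.27e-12), and so did ARPC1B, a subunit of the branching ARP2/3 complex (−1.0, SE 0.0526, edgeR adjusted p = 3.63e-12).

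Of 28 other focal adhesion genes, 27 were tested, with 10 higher and 11 lower and a median of −0.016. TLN2, talin 2, which links integrins to actin, had 493, 510 and 540 normalized counts in GFP and 1770, 1604 and 1610 in RBFOX1 cells (log2 fold change 1.69, SE 0.0621, edgeR adjusted p = 1.70e-14). FERMT2, kindlin 2, an integrin activator, rose by 1.37 (SE 0.0561, edgeR adjusted p = 8.61e-14). PALLD, palladin, a scaffold of stress fibres, fell (−0.73, SE 0.0831, edgeR adjusted p = 3.50e-07), as did the zyxin relative TRIP6 (−0.57, SE 0.0573, edgeR adjusted p = 6.16e-08).

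**Figure D5:**
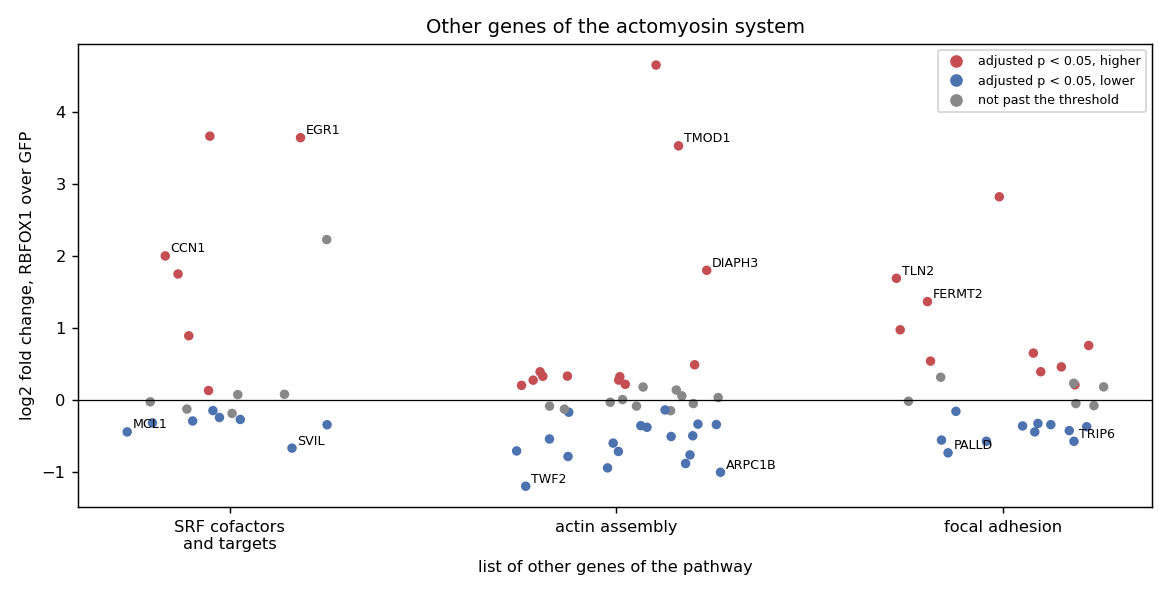
Log2 fold change, RBFOX1 over GFP, of each tested gene in the 3 lists of other actomyosin genes; red and blue points passed the threshold, grey points did not, and the labelled genes are the 2 largest rises and 2 largest falls of each list among genes with a mean of at least 50 normalized counts. Each list has points on both sides of 0.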

How the data were processed

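Counts were deposited by the authors for each gene and library, without normalization. They had aligned 100 bp paired-end reads of rRNA-depleted, stranded libraries with HISAT2 (GRCh38) and counted them with HTSeq-count (intersection-strict, reverse strand) on Ensembl genes. The 5 summary lines of each file, 38.1 to 48.0% of its total, were left out. A deposited DESeq2 table of means, fold changes, standard errors, statistics and p-values was not used.

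TMM scaling and the two-sided quasi-likelihood test came from edgeR (version 4.0.16, under R 4.3.3). The model held condition alone, and genes needed at least 10 summed counts. Alternatives were DESeq2 1.42.0, limma-voom (limma 3.58.1), other scalings and filters, a replicate block, a threshold of 0.01, a 1.5-fold minimum and leaving out each library. Family shares were compared with exact permutation tests. A limit of 3 counts stood for 0, and limits cover counting error only. The common biological coefficient of variation was 0.0542. The study's methods describe the 3 libraries of each line as biological replicates.

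Lengths, symbols, positions and 3′ UTRs came from GENCODE release 44, a later annotation than the counts, and 98.1% of identifiers matched. Promoter windows came from RefSeq. The procedure was tested on simulated data. The members and lists were chosen with earlier results of these data known. Genes named were the members, RBFOX1, the fixed cell type markers and, from each other list, the 2 largest rises and 2 largest falls past the threshold with a mean of at least 50 normalized counts. FAS, STAMBPL1 and ENSG00000280143, which overlap members, were added after their values were seen. A further list of genes is not reported here.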

Additional observations from a re-analysis of the deposited data

How the results depend on the processing

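The numbers of members higher and lower stayed between 18 and 21 and between 8 and 10 under every tool, scaling, filter and omitted library and at a threshold of 0.01, and dropped to 7 and 3 when a change beyond 1.5-fold was itself tested. The median of the members was 0.21 with library totals only and 0.13 with upper-quartile scaling, and 0.14 to 0.18 with each library left out in turn. No scaling moved the median of all genes by more than 0.1 on the log2 scale. With the 1.5-fold minimum, 0 other SRF genes, 7 actin assembly genes and 0 focal adhesion genes were lower, and 5 other SRF genes, 3 actin assembly genes and 4 focal adhesion genes were higher.

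Members near 0 changed sign without passing the threshold. These were SRF (−0.0052 with upper-quartile scaling), CFL1 (0.010) and VCL (0.032) with library totals only, and MYL12B (0.0035 in DESeq2, 0.0046 with its size factors, 0.014 with filterByExpr, 0.050 with library totals only). With each library left out in turn, SRF ranged from −0.0041 to 0.053, MYL6 from −0.0065 to 0.11, MYL12B from −0.034 to 0.046 and ZYX from −0.050 to 0.11.

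Differences in family shares, RBFOX1 minus GFP in percentage points, depended on length. First from counts not divided by length and then with all annotated exon bases, a choice added after seeing the transcript lengths, they were 24.0 and 16.8 for TPM1 (31.1 with canonical transcripts), 1.54 and 4.47 for TPM2 (−1.81), −9.24 and −6.75 for TPM3 (−4.99), −16.3 and −14.5 for TPM4 (−24.3), 0.744 and 0.724 for MYL9 (0.251), and 23.0 and 9.43 for TAGLN (9.87). With all exon bases the differences were 1.17 for MYH9 (1.91) and 3.56 for ACTN1 (6.54). In the same 2 units, also added after seeing the data, the summed transgelins were 1.15-fold and 0.974-fold the GFP level (0.979-fold with canonical transcripts) and the summed tropomyosins 1.25-fold and 1.27-fold (1.65-fold).

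Same-numbered libraries did not deviate together (correlations of −0.174, 0.0348 and −0.0586), so the numbers were not taken as pairs. With the replicate block, 19 members were higher and 10 lower, with a median of 0.16, and MYL12A no longer passed (adjusted p = 0.0593). LMOD1, near 3 counts, was not tested under filterByExpr, and depth limits its fold and that of CNN1.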
